A study of Mus musculus with 786 samples.

Results

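Single stem and progenitor cells of mouse bone marrow that carried transcripts of Vwf, the gene of von Willebrand factor, were described here. A cell counted as Vwf-positive where Vwf stood at FPKM 1 or more (FPKM is the number of fragments scaled to transcript length and to all mapped fragments of the library). These cells were chosen by that value, so their Vwf level is given as a description with no test. Of 373 single cells, 61 were Vwf-positive and 312 were Vwf-negative. The 373 were the wells labelled with 1 cell in which at least 1000 genes reached FPKM 1, out of 460 wells with that label and 672 wells on 7 plates.

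The cells came from C57BL6 mice of 6 to 8 weeks. The groups were MPP1 from bled mice (1 plate), MPP1 from normal mice (2 plates), haematopoietic stem cells (HSC) from bled mice (1 plate) and HSC from normal mice (3 plates). Both gates were CD48-, CD150+ and CD135-, and they differed in that MPP1 were CD34+ and HSC were CD34-. The labels used here do not give how the mice were bled, nor how many mice stood behind a plate, so the spread between plates may be technical. A further table held 18 sorted bulk populations with 1 library each.

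Von Willebrand factor is a large glycoprotein that tethers platelets to injured vessel walls and carries clotting factor VIII in plasma. It is made by endothelial cells and megakaryocytes and stored in secretory granules. In mouse bone marrow, Vwf is known as a marker of a subset of stem cells biased towards platelet production.

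Over all 61 Vwf-positive cells, the Vwf level ranged from 1.12 to 147 FPKM with a median of 12.2 FPKM. In the MPP1 plates the median was 9.21 FPKM in 8 bled cells, 15.4 FPKM in 3 cells of plate 1 and 44.8 FPKM in 3 cells of plate 2. In the HSC plates it was 13.1 FPKM in 17 bled cells, 14.3 FPKM in 8 cells of plate 1, 9.02 FPKM in 10 cells of plate 2 and 10.2 FPKM in 12 cells of plate 3. The levels on all 7 plates overlapped, and each plate held cells below 5 FPKM. Levels of 50 FPKM or more occurred in 10 of the 61 cells, 35 cells reached 10 FPKM, and 14 lay under 5 FPKM. The 3 Vwf-positive cells nearest the threshold stood at 1.12, 1.17 and 1.23 FPKM, and the 3 nearest Vwf-negative cells at 0.898, 0.868 and 0.815 FPKM. Most Vwf-negative cells had no Vwf value at all, since 293 of 373 cells were listed at 0 and 19 lay above 0 and under 1 FPKM. A listing at 0 does not show that a cell lacked Vwf transcripts, so Vwf-negative means not detected here.

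**Figure D1:**
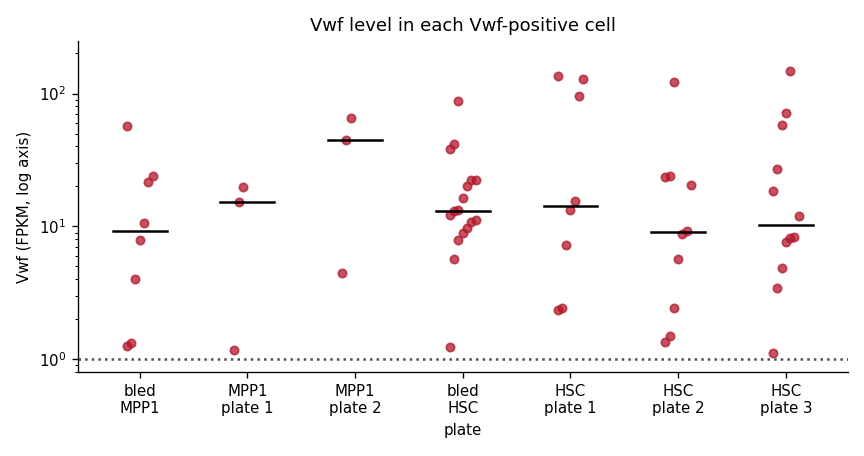
Vwf level (FPKM, log axis) in each of the 61 Vwf-positive cells, by plate, with the plate median as a bar and the threshold of 1 FPKM as a dotted line. Levels spread from 1.12 to 147 FPKM and overlap between plates.

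On average Vwf-positive cells made up a smaller share of the MPP1 plates than of the HSC plates, a difference that these plates are too few to test. On both gates the bled plate had the highest share. In bled MPP1, 8 of 50 cells (16.0%) were Vwf-positive, with an exact 95% binomial interval of 7.17 to 29.1%. MPP1 plate 1 had 3 of 51 (5.88%; 1.23 to 16.2%) and MPP1 plate 2 had 3 of 48 (6.25%; 1.31 to 17.2%). In bled HSC, 17 of 48 cells were Vwf-positive (35.4%; 22.2 to 50.5%). HSC plate 1 had 8 of 50 (16.0%; 7.17 to 29.1%), HSC plate 2 had 10 of 53 (18.9%; 9.44 to 32.0%) and HSC plate 3 had 12 of 73 (16.4%; 8.79 to 27.0%). These intervals cover counting error only.

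The mean share was 9.38% ± 5.74 over MPP1 plates (SD, n = 3) and 21.7% ± 9.24 over HSC plates (SD, n = 4). The difference of -12.3 percentage points gave p = 0.114 in an exact two-sided permutation test over plates. The smallest p this design allows is 0.0571, so the test could not pass 0.05. Without bled HSC the difference was -7.72 points. The 2 ranges touched at 16.0%, which bled MPP1 and HSC plate 1 shared. Among cells with 2000 or more and under 3000 genes detected, a range chosen after the data were seen, the shares were 5.56, 6.67 and 4.55% on bled MPP1 and MPP1 plates 1 and 2, against 36.4, 17.2, 20.6 and 18.2% on bled HSC and HSC plates 1, 2 and 3. There the MPP1 and HSC plates did not overlap, with the MPP1 shares resting on 1 of 18, 2 of 30 and 1 of 22 cells. The difference was -17.5 points with exact p = 0.0571 in the same permutation test, the smallest that this design allows. As the range was picked afterwards, this is a description. In that range of depth, the bled MPP1 share (1 of 18 cells) lay between those of the normal MPP1 plates.

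Bled HSC had 35.4% Vwf-positive cells against 17.1% ± 1.54 (SD, n = 3) over normal HSC plates, a ratio of 2.07. Bled MPP1 had 16.0% against 6.07% ± 0.26 (SD, n = 2) over normal MPP1 plates, a ratio of 2.64. Permuting which plate was the bled one within each gate, a test added after the data were seen, gave an exact two-sided p of 0.0833 for the mean difference of 14.1 percentage points, the smallest p that the 12 arrangements allow. The bled plates stood in a table of their own, so bleeding and any difference between tables cannot be told apart.

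Wells labelled as holding no cell gave a measure of background. Vwf reached FPKM 1 in 7 of 150 such wells (4.67%; exact 95% interval 1.90 to 9.38%). They were 1 of 29 wells on bled MPP1, 3 of 36 on bled HSC, 1 of 21 on HSC plate 1 and 2 of 11 on HSC plate 3, and none on the other plates. Their levels ran from 2.08 to 53.9 FPKM, and they held 343 to 980 genes, below the 1000 genes asked of a cell. On bled HSC the interval for the empty wells (1.75 to 22.5%) lay below that plate's share among cells (35.4%). On every other plate the interval contained the plate's share among cells, with the widest on HSC plate 3 (2.28 to 51.8%). These plates had 11 to 29 empty wells each, so their wide intervals cannot decide whether the shares differ. Pooled over all plates, the share among cells was 16.4% (61 of 373 cells, exact 95% interval 12.7 to 20.5%). Among wells labelled with 2 or more cells, 12 of 62 (19.4%; 10.4 to 31.4%) reached Vwf FPKM 1.

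**Figure D2:**
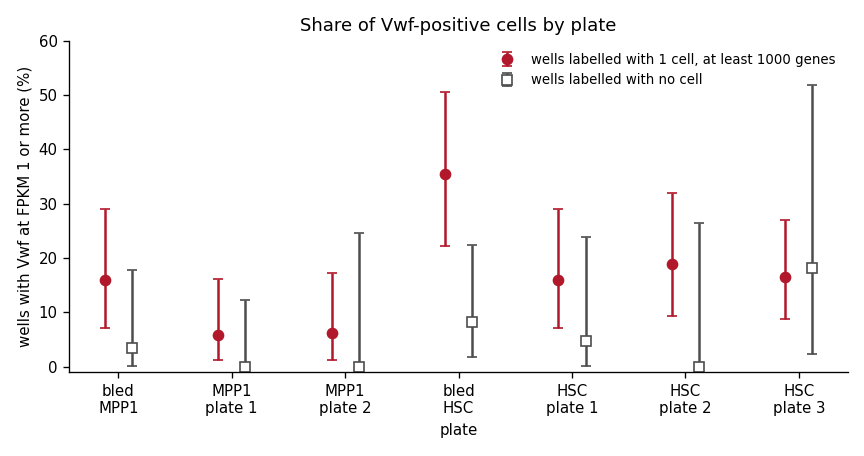
Share of wells with Vwf at FPKM 1 or more (%) on each plate, for wells with 1 cell that passed (filled circles) and for wells labelled with no cell (open squares), with exact 95% binomial intervals. Bled HSC stands highest at 35.4% and the normal MPP1 plates lowest at 5.88 and 6.25%.

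Sorted in bulk, megakaryocyte progenitors (MKP) had the highest Vwf level of the 18 populations, 52.0 FPKM, followed by HSC at 13.9 FPKM, mature megakaryocytes at 1.60 FPKM and MPP1 at 1.19 FPKM. The other 9 listed above 0 lay between 0.00298 and 0.634 FPKM, and CFU-E, CLP, MPP3, MPP4 and preGM were listed at 0. The bulk level does not separate the share of cells with Vwf from the level per cell. The mean over all cells of a plate, Vwf-negative cells included, was 2.56, 0.728 and 2.38 FPKM on bled MPP1 and MPP1 plates 1 and 2, against 7.17, 8.04, 4.16 and 5.04 FPKM on bled HSC and HSC plates 1, 2 and 3. The label of the bulk HSC library gives CD34+, as for MPP1, and not CD34- as for the single HSC. The bulk table is named PMA RNA-seq and not single-cell RNA-seq, so bulk and single-cell FPKM may not be on one scale.

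More genes were detected in Vwf-positive than in Vwf-negative cells on 6 of 7 plates, counting genes other than Vwf. The medians were 3864 against 2879.5 genes on bled MPP1, 2597 against 2528.5 on MPP1 plate 1 and 3584 against 2475 on MPP1 plate 2. They were 2540 against 2325 on bled HSC, 2290 against 2133.5 on HSC plate 1, 2592.5 against 2594 on HSC plate 2 and 2161.5 against 1907 on HSC plate 3. Over the 5 plates with at least 5 cells of each kind, the mean difference was 321.8 ± 383 genes (SD, n = 5), higher on 4 of 5. An exact two-sided sign-flip test gave p = 0.125. Its smallest possible p is 0.0625, so it could not pass 0.05. Without bled MPP1 the difference was 156 genes. Over all 7 plates, a choice made after the values were seen, it was 398 ± 453 genes with exact p = 0.0312. The limma comparisons below carry the number of genes detected in a cell as a covariate, except for the alternative settings run without it.

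**Figure D3:**
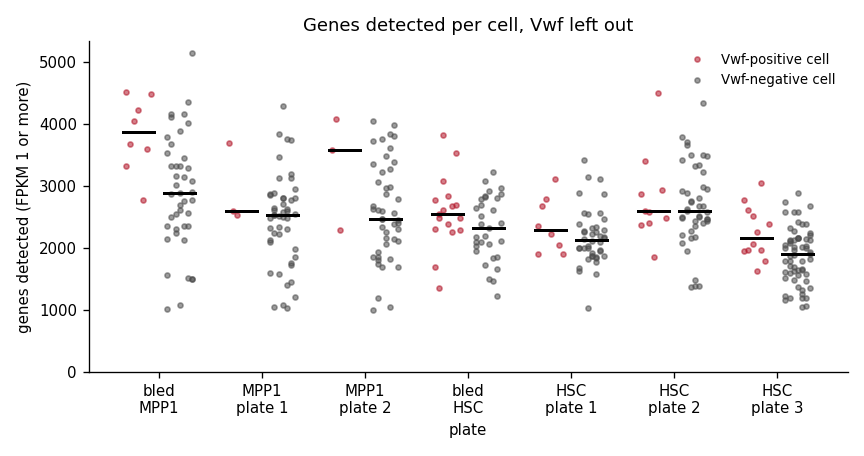
Genes at FPKM 1 or more in each cell, Vwf left out, for Vwf-positive (left, red) and Vwf-negative cells (right, grey) of each plate, with medians as bars. The largest gaps are on MPP1 plate 2 (3584 against 2475) and bled MPP1 (3864 against 2879.5).

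Markers of the sort gate and of other cells were read from the same libraries. Kit, the stem cell factor receptor, was detected at FPKM 1 or more in 52 of 61 Vwf-positive cells and 265 of 312 Vwf-negative cells, and Ly6a (Sca-1) in 37 and 176. Cd48, absent from the gate at the surface, was in 0 of 61 against 10 of 312 cells, and Flt3 (CD135), a receptor of lymphoid-primed progenitors, was in 1 of 61 against 31 of 312. All such counts here pool plates and gates, and 14 of 61 against 135 of 312 cells were MPP1. Cd48 was in 4 of 42, 4 of 48 and 1 of 45 Vwf-negative cells of bled MPP1 and MPP1 plates 1 and 2. Flt3 was in 1 of 14 against 19 of 135 MPP1 and in 0 of 47 against 12 of 177 HSC. Endothelial cells also make Vwf. Of 21 endothelial and stromal genes, 11 were found in at least 1 Vwf-positive cell, and 10 in none, among them Cdh5, Kdr and Flt1 (0, 3 and 0 of 312 Vwf-negative cells). Icam2 was in 31 of 61 against 94 of 312 cells, Eng in 25 against 92, Egfl7 in 23 against 95, Tie1 in 14 against 39 and Robo4 in 11 against 38. Pecam1 was in 5 of 61 (8.20%) against 35 of 312 cells (11.2%), and Emcn in 10 (16.4%) against 50 (16.0%). At least 3 genes of the list were detected in 23 of 61 against 53 of 312 cells, and the mean number per cell, not adjusted for depth, was higher in Vwf-positive cells on 6 of 7 plates. Adjusted for genes detected, 6 genes of the list were tested in the comparison below, 3 higher and 3 lower, with a median difference of -0.12. Mast cell and basophil markers were in 0 of 61 cells, neutrophil markers in 1 and T or NK markers in 8, against 8, 4 and 16 of 312. B and plasma cell markers were in 15 of 61 against 92 of 312 cells, mainly through Cd79b (14 against 89). Of the macrophage markers, Cd68 was in 10 of 61 against 14 of 312 cells, while C1qa, C1qb and C1qc were in none of either. The summed macrophage list reached at most 707 FPKM in Vwf-positive cells and 485 FPKM in Vwf-negative cells, with a median of 0 in both. The part of these other cells' markers in the results below was not tested.

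For each gene, the difference between Vwf-positive and Vwf-negative cells was estimated within each plate on the log2(FPKM + 1) scale, and the 5 plate values were tested against 0 with limma. Of 7058 genes tested, 0 passed an adjusted p of 0.05 in either direction (0% of the genes tested; Benjamini-Hochberg over all 7058), and the smallest adjusted p was 0.189. At an unadjusted p under 0.05 there were 192 genes higher (2.72%) and 207 lower (2.93%) in Vwf-positive cells, 399 in all (5.65%). The difference was above 0 on all 5 plates for 187 genes (2.65%) and below 0 on all 5 for 325 (4.6%). Among the 20 alternative settings, the count of calls reached at most 3 genes, all from Ctla2a, Rgs1 and Ptplad2. The genes named below are therefore given by their values and not as changed genes.

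Ctla2a, an inhibitor of cysteine proteases that is highly expressed in blood stem cells, had the smallest p. Its mean log2(FPKM + 1) was 5.46 in Vwf-positive against 7.44 in Vwf-negative cells on bled MPP1, and 4.51 against 6.47 on bled HSC. On HSC plates 1, 2 and 3 the means were 3.00 against 3.97, 4.15 against 4.76 and 3.46 against 6.43. Vwf-positive cells had the lower mean on every plate, also on MPP1 plate 1 (7.99 against 8.43) and plate 2 (7.12 against 8.03), which did not enter the test. The adjusted difference was -2.16 ± 0.41 (SE, n = 5 plates), lower on 5 of 5 plates, with a limma adjusted p of 0.189. With Vwf-negative cells restricted to those listed at 0, with a Vwf threshold of 5 FPKM, or without HSC plate 1, Ctla2a passed, and over all alternatives its limma adjusted p ranged from 0.0285 to 0.9996.

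Rgs1, which shortens signalling by G-protein-coupled receptors, had an adjusted difference of -2.51 ± 0.50 (SE, n = 5 plates; limma adjusted p = 0.194). It was detected in 3 of 8 against 36 of 42 cells on bled MPP1 and in 6 of 17 against 15 of 31 on bled HSC. On HSC plates 1, 2 and 3 the counts were 2 of 8 against 20 of 42, 5 of 10 against 34 of 43 and 5 of 12 against 34 of 61. The share with Rgs1 was thus lower among Vwf-positive cells on each of these plates. MPP1 plate 1 stood apart with Rgs1 in 3 of 3 Vwf-positive cells against 44 of 48.

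Ptplad2, an enzyme in the lengthening of very long fatty acids, was the gene with the smallest p among those higher in Vwf-positive cells. Its mean log2(FPKM + 1) was 4.29 against 1.26 on bled MPP1 and 4.98 against 2.64 on bled HSC. On HSC plates 1, 2 and 3 it was 4.21 against 3.62, 5.34 against 2.33 and 4.00 against 2.13. The adjusted difference was 2.04 ± 0.43 (SE, n = 5), higher on 5 of 5 plates, with a limma adjusted p of 0.233. On MPP1 plate 1, Ptplad2 was in 0 of 3 Vwf-positive cells and 20 of 48 Vwf-negative cells.

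Clu, which encodes the secreted chaperone clusterin and is often reported in platelet-biased and aged HSC, was detected in 19 of 61 Vwf-positive cells (31.1%) and 16 of 312 Vwf-negative cells (5.13%). On bled MPP1 it was in 6 of 8 against 5 of 42 cells, on MPP1 plate 1 in 0 of 3 against 2 of 48 and on MPP1 plate 2 in 2 of 3 against 1 of 45. On bled HSC it was in 6 of 17 against 3 of 31 cells, and on HSC plates 1, 2 and 3 in 2 of 8 against 1 of 42, 2 of 10 against 3 of 43 and 1 of 12 against 1 of 61. The share was higher among Vwf-positive cells on 6 of the 7 plates. The adjusted difference was 4.81 on bled MPP1, 1.36 on bled HSC and 1.67, 0.47 and 0.05 on HSC plates 1, 2 and 3, with a mean of 1.67 ± 0.45 (SE, n = 5; limma adjusted p = 0.743).

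The other genes with the smallest p among those higher were Pxmp4, a peroxisomal membrane protein (1.18 ± 0.29, SE), Clip3, a microtubule linker protein (0.78 ± 0.19), Ecscr, a regulator of endothelial cell movement (1.65 ± 0.41), Samd12 (1.06 ± 0.27), Gimap4, a GTPase of lymphocytes (1.05 ± 0.27), and AW146154 (1.00 ± 0.26). Ecscr was in 23 of 61 against 39 of 312 cells, and Pxmp4 in 20 of 61 against 42 of 312. Pxmp4, Clip3, Samd12 and AW146154 were above 0 on 5 of 5 plates, and Ecscr and Gimap4 on 4. None had a limma adjusted p under 0.722. Clip3, Gimap4 and AW146154 averaged under 10% among Vwf-negative cells of the 5 plates. They passed the filter of detection in 10% of cells only with Vwf-positive cells counted.

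Among the genes lower in Vwf-positive cells, those that followed Ctla2a and Rgs1 were Serpinb1a, an inhibitor of neutrophil proteases (-1.33 ± 0.35, SE), 2810422J05Rik (-1.43 ± 0.40), Tmsb10, which binds actin monomers (-1.45 ± 0.41), Zfp330 (-1.33 ± 0.38), Vamp8, a SNARE protein of granule secretion (-1.33 ± 0.38), and Vim, the filament protein vimentin (-1.63 ± 0.48). All but Vim were below 0 on 5 of 5 plates. Vim was detected in 1 of 8 against 26 of 42 cells on HSC plate 1, 4 of 10 against 29 of 43 on plate 2 and 4 of 12 against 26 of 61 on plate 3. On bled HSC it was in 15 of 17 against 24 of 31, with an adjusted difference of 0.31. Limma adjusted p was at least 0.743 for these 6 genes.

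**Figure D4:**
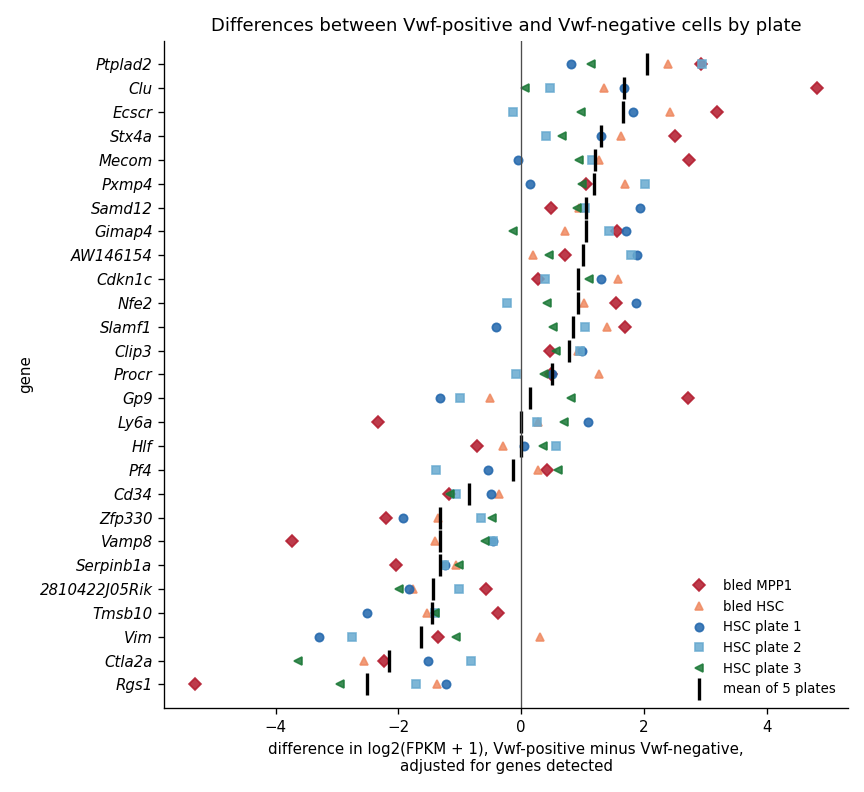
Adjusted difference in log2(FPKM + 1) between Vwf-positive and Vwf-negative cells for 27 named genes (rows), with 1 point per plate and a black bar at the mean of the 5 plates. Ptplad2 lies above 0 and Ctla2a and Rgs1 below 0 on all 5 plates, while Pf4, Gp9, Hlf and Ly6a lie on both sides.

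Genes of platelets and megakaryocytes came next, with Vwf itself left out. Of 30 listed genes 11 passed the filter of detection in 10% of cells, 5 of them higher and 6 lower, with a median difference of -0.07 against -0.02 over all 7058 genes.

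Pf4, a chemokine of platelet granules, was counted beside Vwf in each gate. In MPP1 it was in 7 of 14 Vwf-positive cells (50.0%) and 34 of 135 Vwf-negative cells (25.2%), pooled over 3 plates. In HSC it was in 5 of 47 (10.6%) and 29 of 177 (16.4%), pooled over 4 plates. By plate it was in 3 of 8 against 11 of 42 cells on bled MPP1, 1 of 3 against 13 of 48 on MPP1 plate 1 and 3 of 3 against 10 of 45 on MPP1 plate 2. The HSC plates had 1 of 17 against 3 of 31 on bled HSC, and 1 of 8 against 5 of 42, 0 of 10 against 10 of 43 and 3 of 12 against 11 of 61 on plates 1, 2 and 3. In the gate term over 7 plates, a choice made after the values were seen, Pf4 had a larger difference in MPP1 by 3.96 ± 1.29 (SE), which did not pass (limma adjusted p = 0.667). That fit takes in normal MPP1 plates with 3 Vwf-positive cells each. On the 5 plates of the main test the term was 0.15 ± 1.07.

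The 6 Vwf-positive cells of the normal MPP1 plates can be given one by one. On MPP1 plate 1 the cell with the most Vwf (19.7 FPKM) had 6492 FPKM of Pf4 and 10 platelet and megakaryocyte genes detected. The others, at 15.4 and 1.17 FPKM of Vwf, had 4 and 2 such genes and Pf4 listed at 0. On MPP1 plate 2 the cells had 65.0, 44.8 and 4.49 FPKM of Vwf, with 4486, 1192 and 112 FPKM of Pf4 and 11, 7 and 10 platelet genes. The median among Vwf-negative cells was 4 such genes on plate 1 and 5 on plate 2. These 6 cells had 2288 to 4075 genes detected in all.

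Itga2b, the platelet integrin chain CD41, was in 4 of 8 against 6 of 42 cells on bled MPP1, 1 of 3 against 6 of 48 on MPP1 plate 1 and 2 of 3 against 10 of 45 on MPP1 plate 2. In HSC it was in 2 of 47 Vwf-positive and 13 of 177 Vwf-negative cells. Gp9, a subunit of the platelet receptor for von Willebrand factor, was in 5 of 8 against 6 of 42 cells on bled MPP1, 1 of 3 against 6 of 48 on MPP1 plate 1 and 1 of 3 against 17 of 45 on MPP1 plate 2. On bled HSC it was in 2 of 17 against 5 of 31, and on HSC plates 1, 2 and 3 in 1 of 8 against 13 of 42, 1 of 10 against 11 of 43 and 5 of 12 against 10 of 61. Its adjusted difference was 2.72 on bled MPP1 and between -1.33 and 0.81 on the HSC plates, with a mean of 0.14 ± 0.45 (SE). Selp, which encodes P-selectin of platelet granules, was in 7 of 61 against 17 of 312 cells.

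Over the whole platelet list, Vwf-positive cells of bled MPP1 had a mean of 8.50 genes detected against 4.95 in Vwf-negative cells. MPP1 plate 1 had 5.33 against 3.92 and MPP1 plate 2 had 9.33 against 5.02. The HSC plates had 4.00 against 3.81 on bled HSC, 4.00 against 3.45 on plate 1, 4.20 against 4.63 on plate 2 and 5.25 against 3.89 on plate 3. More genes of any kind were also detected in the Vwf-positive cells of bled MPP1 and MPP1 plate 2, and the part of depth in these counts was not tested.

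**Figure D5:**
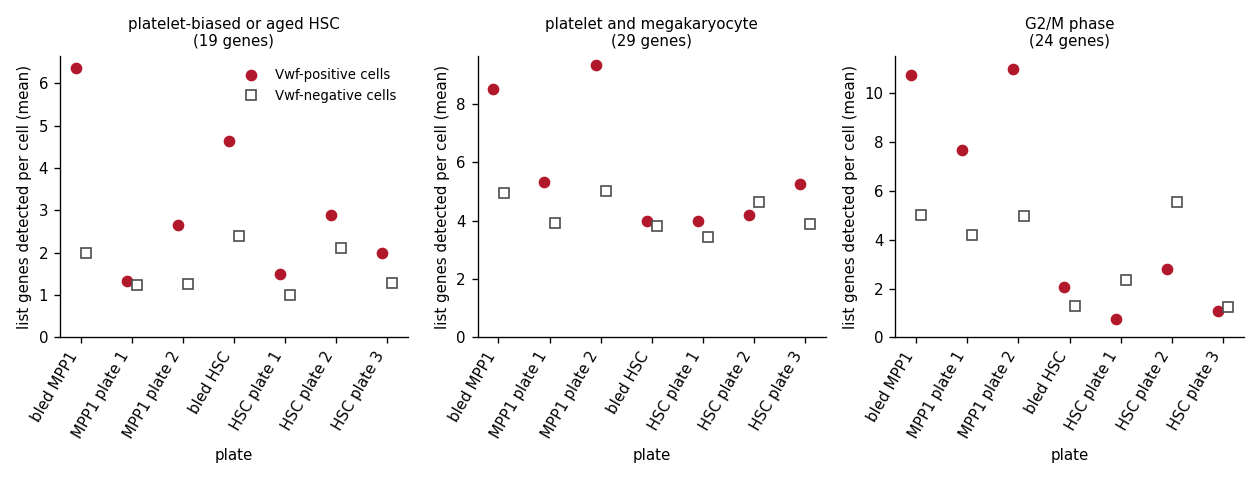
Mean number of genes detected per cell (FPKM 1 or more, not adjusted for depth) from 3 gene lists, in Vwf-positive (red circles) and Vwf-negative cells (open squares) of each plate. For the platelet-biased or aged HSC list the means are 6.38 against 2.00 on bled MPP1 and 4.65 against 2.39 on bled HSC.

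Of 20 genes reported in platelet-biased or aged HSC, 8 passed the filter. All 8 had a positive mean difference, with a median of 0.58 against -0.02 over all genes tested, of which 47.4% were above 0. The filter counted both groups of cells together, which favours rare genes that are higher in Vwf-positive cells. Clu was in 11.9, 9.68, 2.38, 6.98 and 1.64% of Vwf-negative cells on bled MPP1, bled HSC and HSC plates 1, 2 and 3. It thus passed the filter only with Vwf-positive cells counted, and the count of 8 is a description. Clu and Slamf1 (CD150) had an unadjusted p under 0.05, and none passed after adjustment. The others were Mt1 (0.69), Sult1a1 (0.66), Aldh1a1 (0.50), Gda (0.41), Fhl1 (0.20) and Nupr1 (0.02). The list's median by plate was 1.61 on bled MPP1 and 1.04 on bled HSC, and -0.14, 0.38 and -0.07 on HSC plates 1, 2 and 3. The mean number of these genes detected per cell was higher in Vwf-positive cells on 7 of 7 plates, by 0.10 to 4.38 genes. This count is not adjusted for depth, and housekeeping genes (by 0.055 to 1.26 genes) and glycolysis genes (by 0.47 to 1.91) also had a higher mean number in Vwf-positive cells on 7 of 7 plates, as did the erythroid list and the list of transcription factors of both lineages. At least 3 genes of the platelet-biased or aged HSC list were detected in 39 of 61 against 71 of 312 cells.

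Of 30 genes of the HSC program 25 were tested, 17 higher and 8 lower, with a median of 0.18. Mecom, a transcription factor needed by stem cells, was in 43 of 61 (70.5%) against 144 of 312 cells (46.2%). Its adjusted difference was 2.73 on bled MPP1, 1.27 on bled HSC and -0.05, 1.15 and 0.93 on HSC plates 1, 2 and 3, with a mean of 1.21 ± 0.43 (SE; limma adjusted p = 0.851). Slamf1 was in 21 of 61 (34.4%) against 39 of 312 cells (12.5%), with a mean difference of 0.84 ± 0.32, and Cdkn1c, an inhibitor of the cell cycle, had 0.93 ± 0.37. Both also had a limma adjusted p of 0.851. Cd34, the surface marker that separates the gates, had -0.85 ± 0.37 (limma adjusted p = 0.851) and was below 0 on 5 of 5 plates. It was in 7 of 14 Vwf-positive against 96 of 135 Vwf-negative MPP1, and in 15 of 47 against 73 of 177 HSC. Procr (EPCR) had 0.50 ± 0.37, Hlf -0.01 ± 0.40 and Ly6a -0.01 ± 0.45, and none of these 3 had an unadjusted p under 0.05.

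Of 16 transcription factors of the megakaryocytic and erythroid lineages 14 were tested, 12 higher and 2 lower, with a median of 0.19. Nfe2, which drives platelet release, had 0.92 ± 0.42 (SE; limma adjusted p = 0.851) and was above 0 on 4 of 5 plates. Gata2 (0.44) and Fli1 (0.30) were already in 242 and 268 of 312 Vwf-negative cells. Gata1, the master regulator of both lineages, was in 6 of 14 against 14 of 135 MPP1 and in 1 of 47 against 10 of 177 HSC.

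Genes for storage and release of von Willebrand factor were 7 tested of 14 listed, 4 higher and 3 lower, with a median of 0.29. Stx4a, a membrane SNARE protein, had adjusted differences of 2.50 on bled MPP1, 1.62 on bled HSC and 1.31, 0.40 and 0.67 on HSC plates 1, 2 and 3, and Rab3d, a granule GTPase, had 0.57 ± 0.25. Rab27a, another granule GTPase, had -0.94 ± 0.35 and was below 0 on 5 of 5. The limma adjusted p was 0.777 for Stx4a and 0.851 for Rab3d and Rab27a. Rab3d averaged under 10% among Vwf-negative cells of the 5 plates, and passed the filter only with Vwf-positive cells counted.

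Genes of cell division had medians of opposite sign on bled MPP1 and on the normal HSC plates, a contrast that was not tested. Of 24 genes of G2 and M phase 15 were tested, 1 higher and 14 lower, with a median of -0.23. The list's median was 0.65 on bled MPP1, -0.00 on bled HSC and -0.80, -0.87 and -0.33 on HSC plates 1, 2 and 3. At least 3 of these genes were detected in 8 of 8 Vwf-positive against 20 of 42 Vwf-negative cells of bled MPP1. The counts were 3 of 17 against 2 of 31 on bled HSC, and 1 of 8 against 8 of 42, 2 of 10 against 20 of 43 and 1 of 12 against 4 of 61 on HSC plates 1, 2 and 3. On MPP1 plates 1 and 2, which did not enter the test, they were 1 of 3 against 25 of 48 and 3 of 3 against 21 of 45. The mean number of these genes per cell, not adjusted for depth, was 7.67 against 4.19 and 11.0 against 4.96 on those plates. On bled MPP1 it was 10.75 against 5.02. Mki67, a protein of dividing cells, was in 5 of 8 against 15 of 42 cells on bled MPP1, in 2 of 17 against 1 of 31 on bled HSC and, over the 3 normal HSC plates, in 0 of 8 against 6 of 42, 1 of 10 against 17 of 43 and 2 of 12 against 5 of 61. On MPP1 plates 1 and 2, Mki67 was in 2 of 3 against 17 of 48 and 1 of 3 against 23 of 45 cells. Adjusted for genes detected, its difference was -0.32 on bled MPP1, 0.06 on bled HSC and -1.15, -1.31 and -0.18 on HSC plates 1, 2 and 3. Genes of S phase were 20 tested of 21, 6 higher and 14 lower, with a median of -0.26. Chaf1b, a subunit of a chromatin assembly factor, had -0.75 ± 0.36 (SE; limma adjusted p = 0.851) and was below 0 on 5 of 5 plates.

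Oxidative phosphorylation had 6 of 21 genes higher and 15 lower, with a median of -0.25 and with Atp5a1 (-1.35 ± 0.42, SE) and Cox6a1 (-0.69 ± 0.29) at an unadjusted p under 0.05. Erythroid genes were 3 higher and 2 lower of 5 tested, granulocyte-monocyte genes 1 and 3 of 4, lymphoid genes 4 and 3 of 7, and MHC class II genes 1 and 4 of 5. Csf3r, the G-CSF receptor, was in 1 of 14 against 45 of 135 MPP1 and in 5 of 47 against 21 of 177 HSC (-0.47 ± 0.23). Cd74, the MHC class II invariant chain, was in 17 of 61 against 67 of 312 (0.44 ± 0.50). Of the 17 Vwf-positive cells with Cd74, 6 were among the 8 of HSC plate 1. Interferon response genes were 4 higher and 9 lower of 13, with Ifi44 at 0.96 ± 0.43, and immediate early genes 7 and 9 of 16. Housekeeping genes were 4 higher and 8 lower of 12, with a median of -0.10.

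Whether the difference between Vwf-positive and Vwf-negative cells was itself unlike in MPP1 and HSC was tested with a gate term in the same model, in which bled MPP1 was the 1 MPP1 plate. With bleeding as a further term, its estimate is the difference on bled MPP1 minus that on bled HSC, 1 plate against 1 plate, and the spread between plates comes from the 3 normal HSC plates alone. It is thus not a replicated comparison of the gates, and the bled plates are assumed to vary like the normal ones. The term passed the threshold for 2 genes (0.0283% of 7058), both with a larger difference on bled MPP1. Wdhd1, a protein of DNA replication, was in 8 of 8 Vwf-positive against 7 of 42 Vwf-negative cells of bled MPP1. On bled HSC it was in 3 of 17 against 4 of 31, and on HSC plates 1, 2 and 3 in 0 of 8 against 4 of 42, 3 of 10 against 9 of 43 and 0 of 12 against 4 of 61. The term was 4.71 ± 0.77 (SE; limma adjusted p = 0.0357). Cox4i2, a variant subunit of cytochrome c oxidase, was in 5 of 8 against 3 of 42 cells of bled MPP1 and in 3 of 17 against 6 of 31 of bled HSC, with a term of 4.11 ± 0.64 (limma adjusted p = 0.0357). The filter of detection in 10% of cells counted Vwf-positive and Vwf-negative cells together. Among Vwf-negative cells, Cox4i2 was in 7.14% on bled MPP1, 19.4% on bled HSC and 4.76, 9.30 and 3.28% on HSC plates 1, 2 and 3. These shares average under 10%, so Cox4i2 passed the filter only with Vwf-positive cells counted, and its term is a description. On the normal MPP1 plates Cox4i2 was in 0 of 6 Vwf-positive cells. There Wdhd1 was in 0 of 3 against 8 of 48 cells on plate 1 and in 2 of 3 against 11 of 45 on plate 2. With those plates added, so that 3 MPP1 plates stood against 4 HSC plates, limma called 0 genes, with 523 at an unadjusted p under 0.05. Both calls rest on the 8 Vwf-positive cells of bled MPP1 and were also lost without HSC plate 2 or 3, while 23 genes were called without HSC plate 1.

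The term for bleeding, whose estimate is the difference on bled HSC minus the mean over the 3 normal HSC plates, called 0 of 7058 genes by limma. At an unadjusted p under 0.05 it held 178 genes, 112 with a larger and 66 with a smaller difference in bled cells. It called 1 gene with shares of cells in place of log2 values and 0 under the other 8 settings run.

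The Vwf-positive cells were not alike in these genes. Pf4 was in 12 of 61 and Clu in 19 of 61, and 5 cells, all MPP1, had both. Neither was detected in 35 of the 61. In the Vwf-negative cells, 2 of 312 had both and 235 had neither. In MPP1, 4 of 14 Vwf-positive cells had neither gene, and in HSC 31 of 47.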

How the data were processed

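Single-cell RNA-seq of HSC and MPP1 (Smart-seq chemistry; C1 capture is named for some samples, per the labels' protocols) and 1 bulk table were used. The deposited values are FPKM per gene and library, made by the authors. Per the submitters' processing notes, the tools were TopHat 1.3.3, Cufflinks 1.2.1 and Bowtie2 2.2.1, and the genome build was mm9. No counts were used, so the read depth of a library is unknown, and genes detected per cell stands in for it (plate medians 1969 to 3046.5). The single cells lie in 3 tables, and every tested gene difference was estimated within a plate. Shares and Vwf levels are set side by side across tables. Counts out of 61 and 312 cells pool plates and gates of unlike make-up. Of these cells, 47 of 61 Vwf-positive and 177 of 312 Vwf-negative cells were HSC. The submitters list a repeat run of HSC plate 1, and the columns used could hold either run.

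The members and the 26 gene lists were chosen with earlier results of these data known. A gene counted as detected at FPKM 1. Plates, not cells, were the replicates. Within each plate with at least 5 cells of each kind (5 of 7 plates), log2(FPKM + 1) was regressed on Vwf status and genes detected, so that the plate was the block, and the 5 coefficients were tested with limma 3.58.1 (R 4.3.3), with Benjamini-Hochberg adjustment over the 7058 genes detected in at least 10% of the cells. The filter counted Vwf-positive and Vwf-negative cells together, so a rare gene could pass it through the Vwf-positive cells. A difference on this scale understates changes of low genes. No doublet caller was run, and wells labelled with more than 1 cell were left out. The steps were tested on simulated data with known differences. Single values were tested with exact permutation or sign-flip tests over plates (scipy 1.17.1). Where fewer than 5 genes per direction passed, the 8 per direction with the smallest p were named, with a fixed panel and, for each list, up to 3 genes with the smallest p, here those under 0.05. The panel genes Itga2b, Selp, Cd48, Flt3, Pecam1 and Gata1 did not pass the filter. Alternatives changed the covariate, thresholds, pseudocount, filter, weights and plates used. One panel gene is not reported here.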

Additional observations from a re-analysis of the deposited data

Results flagged for a closer look

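Among 42 named genes tested for 1 plate far from the other 4, bled MPP1 stood apart for 5: Wdhd1 (adjusted difference 4.07), Cox4i2 (3.55), Ly6a (-2.33), Serpinb1a (-2.04) and Vamp8 (-3.73). Wdhd1 and Cox4i2 were named because of the gate term, which holds the same bled MPP1 value, so for them this adds nothing. Chance flags about 1 in 20 such groups. The 8 Vwf-positive cells of that plate also had more genes detected than its Vwf-negative cells (medians 3864 and 2879.5), and the part of this in the values was not tested. Without bled MPP1 the difference of Ly6a was 0.58 and that of Wdhd1 -0.36.

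The gate term was past the threshold for Wdhd1 (4.71) and Cox4i2 (4.11). Its estimate is bled MPP1 minus bled HSC, 1 plate on each side, with the spread between plates taken from the normal HSC plates, so it is no replicated difference between the gates.

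Vwf was also at FPKM 1 or more in 4.67% of the 150 wells labelled as holding no cell, in data that no gene comparison used. The flag rests on a set floor of 3 such wells (2%), which is not a measured background rate.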

How the results depend on the processing

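The count of genes called between Vwf-positive and Vwf-negative cells was 0, and was 1 with a Vwf threshold of 5 FPKM, 2 with Vwf-negative cells restricted to those listed at 0, and 0 to 3 when 1 plate was left out (3 without HSC plate 1). It was 0 in the other 13 settings: no covariate (544 genes at an unadjusted p under 0.05, of which 512 were higher, with the median of all genes at 0.18), shares of cells (373), log2 of mean FPKM (467 lower and 59 higher at that p, median -0.28), pseudocounts of 0.1 and 10, no filter, a 25% filter, cells with 2000 genes, plates weighted by cells, a minimum of 2 cells, no replicate block, with the plate means of both groups unpaired (246 against 399 at that p; adjusted p of Ctla2a 0.9996), HSC plates alone, and normal plates alone. MPP1 plates alone could not be fitted. The gate term called 2 genes, but 0 with a pseudocount of 0.1, with a 25% filter, with cells of 2000 genes or with a minimum of 2 cells (added after the data were seen), and 0 with shares of cells (also added), and 0 to 23 when 1 HSC plate was left out (23 without plate 1). The term for bleeding called 0 genes, but 1 with shares of cells. Neither term could be fitted without a bled plate. The cause of these shifts was not tested.

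The difference in genes detected was 322. With 5 plates the smallest exact p is 0.0625, so only the setting over all 7 plates could pass 0.05 (398, exact p = 0.0312). Leaving out 1 plate gave 156 to 403 (156 without bled MPP1). The difference in share was -12.3 points. No setting could pass 0.05, since 3 against 4 plates allow no exact p under 0.0571 and fewer plates allow none lower. Leaving out 1 plate gave -15.6 to -7.72 points (-7.72 without bled HSC). Pairing MPP1 and HSC plates by replicate number or bleeding (replicate block) gave -14.1 points, exact p = 0.25, the smallest that 3 pairs allow. The numbers share no origin in the labels, and the plate 1 minus plate 2 differences of both gates correlated at r = 0.028 over 3856 genes.

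For the named genes, 799 values under alternatives were on the same side of the threshold and of 0 in 754 cases, passed the threshold in 6 and had the opposite sign in 39. The opposite signs were as follows. With log2 of mean FPKM and no covariate the value of Cd74 was -2.01, Cox4i2 was -0.61, Cox6a1 was 0.072, Gp9 was -1.17, Ly6a was 0.034, Procr was -0.068, Slamf1 was -0.027 and Wdhd1 was -0.63. With no covariate the value of Cox6a1 was 0.13, Hlf was 0.064, Ly6a was 0.21 and Pf4 was 0.24. On HSC plates alone (the same plates as without bled MPP1) the value of Gp9 was -0.51, Hlf was 0.17, Ly6a was 0.58 and Wdhd1 was -0.36. On normal plates alone the value of Gp9 was -0.51, Hlf was 0.32, Ly6a was 0.68 and Wdhd1 was -0.27. With a Vwf threshold of 5 FPKM the value of Hlf was 0.016 and Ly6a was 0.10. With a pseudocount of 0.1 the value of Hlf was 0.035 and Ly6a was 0.041. With cells of 2000 genes the value of Hlf was 0.12 and Ly6a was 0.29. With weighted plates the value of Hlf was 0.0079 and Ly6a was 0.085. With Vwf-negative cells listed at 0 the value of Ly6a was 0.042. With a pseudocount of 10 the value of Pf4 was 0.051. With a minimum of 2 cells the value of Pf4 was 1.36. With 1 plate left out, values ranged from -0.35 to 0.89 for Cd74, -0.51 to 0.51 for Gp9, -0.15 to 0.17 for Hlf, -0.28 to 0.58 for Ly6a, -0.31 to 0.19 for Pf4 and -0.36 to 0.81 for Wdhd1.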
